A study of Danio rerio with 20 samples.

Results

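The skin keratins described here are 10 zebrafish genes, krt4, krt5, krt8, krt15, krt17, krt91, krt92, krtt1c19e, cyt1 and cyt1l, out of 22851 genes in the deposited expression table. They were taken by symbol from a list drawn up with earlier results of these data known, and the table holds 25 transcript rows for them. Each gene is represented by its row of highest mean over all libraries. All 10 passed the filter on low values, as did 19289 genes in all, and the lowest value of any of them in any library was equivalent to 889 reads.

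Keratins are the intermediate filament proteins of epithelial cells. A type I keratin pairs with a type II keratin, and the pairs assemble into filaments that anchor to desmosomes and hemidesmosomes and let a sheet of cells bear mechanical stress. In the zebrafish larva the epidermis consists of an outer sheet, the periderm, lying over basal keratinocytes, with ionocytes and mucous cells set between them. Among the 10 genes, krt4, krt5 and krt8 encode type II keratins, and krt15, krt17, krtt1c19e, cyt1 and cyt1l encode type I keratins. The annotation in the table calls cyt1 and cyt1l cytokeratins of the enveloping layer, the embryonic sheet from which the periderm forms, and gives no type for krt91 and krt92.

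RNA was sequenced from whole AB wild type larvae at 96 h post fertilization in 20 libraries, each from 10 pooled larvae, with 4 libraries in each of 5 groups. POP10 and POP70 larvae were exposed to a mixture of persistent organic pollutants scaled to 10 and 70 times Scandinavian human blood levels. PFOS10 and PFOS70 larvae received perfluorooctane sulfonate (PFOS), a fluorinated surfactant, alone at the level it had in each mixture, and Control larvae received 0.1% of the solvent DMSO. Exposure ran from 6 to 96 h post fertilization. A solvent level is labelled for Control alone, and the labels name no batch, clutch or extraction day. P-values here therefore reflect pool-to-pool spread, and a factor shared by all pools of a group cannot be told apart from its exposure.

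Depth, from the worth of 1 read in the table, was 8572287 to 11243574 reads per library, and libraries of a group correlated at 0.972 to 0.988 over the genes tested. The PFOS10 libraries stood apart from the rest. On the first principal component, which held 39.6% of the variance, they lay at -61.5 to -49.4, and the libraries of the other groups lay at -21.9 to 45.0. Markers of brain, muscle, liver, exocrine pancreas, gut and skin were all detected in every library of these whole larvae, and the periderm marker icn was at 6.53 to 8.86 log2 RPM (log2 of reads per 1000000 reads of the library). The blood marker hbae1.1 was looked up by this symbol and gave no match, so blood was not checked.

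In the GRCz11 coordinates of the table, 6 of the 10 keratins form a cluster on chromosome 19, and all 10 are on the minus strand. From low to high coordinate the cluster holds krtt1c19e (5339364 to 5345930), krt92 (5349656 to 5352199), cyt1l (5356421 to 5358443), cyt1 (5362420 to 5364649), krt17 (5367330 to 5369486) and krt91 (5378563 to 5380770). The interval is 41.4 kb long, and no other gene of the table has its row of highest mean inside it. Other transcript rows were not searched. The type II genes krt5 (10173196 to 10177458) and krt8 (10249626 to 10254288) share chromosome 23, krt4 is on chromosome 6 (39308498 to 39313027) and krt15 on chromosome 11 (11515778 to 11518469). Keratin genes are similar in sequence, and no source used here gives the counting rule for reads that match several genes, so the split of reads between neighbouring family members is uncertain.

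Against Control, the keratins were lower after the low dose of PFOS alone. In PFOS10 larvae 5 of the 10, krt5, krt8, krt15, krt91 and krt92, fell past the threshold (limma, Benjamini-Hochberg adjusted p under 0.05 over all genes), where 6.97% of all genes tested were called lower. The log2 differences of the 10 keratins ran from -1.02 to -0.34 with a median of -0.57, against a median of -0.03 over all genes tested. In 3 of the 10, krt8, krt15 and krt92, every PFOS10 library lay below every Control library, which 9.11% of all genes tested also did. These values are levels relative to all reads of whole larvae, so fewer skin cells and less keratin RNA per skin cell cannot be told apart in them.

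The type I keratin krt15, which in mammals is a keratin of basal keratinocytes, had 7.04, 6.64, 7.12 and 7.51 log2 RPM in the 4 PFOS10 libraries and 7.85, 8.08, 7.88 and 8.31 log2 RPM in the 4 Control libraries. The groups did not overlap, and replicate 4 was the highest of the PFOS10 libraries. The difference was -0.95 ± 0.18 (SE, limma adjusted p = 0.00576), a mean level 0.517 times that of Control. For krt92, a keratin of the chromosome 19 cluster, the PFOS10 libraries had 7.24, 6.46, 7.13 and 7.15 log2 RPM and the Control libraries 7.86, 8.37, 7.63 and 8.18 log2 RPM. Again the groups were separate, with replicate 2 lowest in PFOS10, and the difference was -1.02 ± 0.25 (SE, limma adjusted p = 0.0180), or 0.494 times Control.

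For krt8, which in mammals pairs with keratin 18 in simple epithelia, the values were 8.50, 8.43, 8.69 and 8.85 log2 RPM in PFOS10 and 9.12, 9.36, 8.99 and 9.21 log2 RPM in Control. The highest PFOS10 library lay under the lowest Control library, and the difference was -0.55 ± 0.13 (SE, limma adjusted p = 0.0179). The remaining keratins that fell were krt5, the type II keratin of the basal epidermal layer in mammals, and krt91. The PFOS10 libraries had 12.03, 11.80, 11.95 and 12.81 log2 RPM of krt5, and the Control libraries 12.73, 12.72, 12.61 and 12.90 log2 RPM. Replicates 1 to 3 of PFOS10 were below all Control libraries and replicate 4 was within their range, with a difference of -0.59 ± 0.15 (SE, limma adjusted p = 0.0245). krt91 had 10.41, 10.17, 10.40 and 11.25 log2 RPM in PFOS10 and 11.16, 11.27, 11.15 and 11.33 log2 RPM in Control, with the same arrangement of libraries and a difference of -0.67 ± 0.15 (SE, limma adjusted p = 0.0145).

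**Figure D1:**
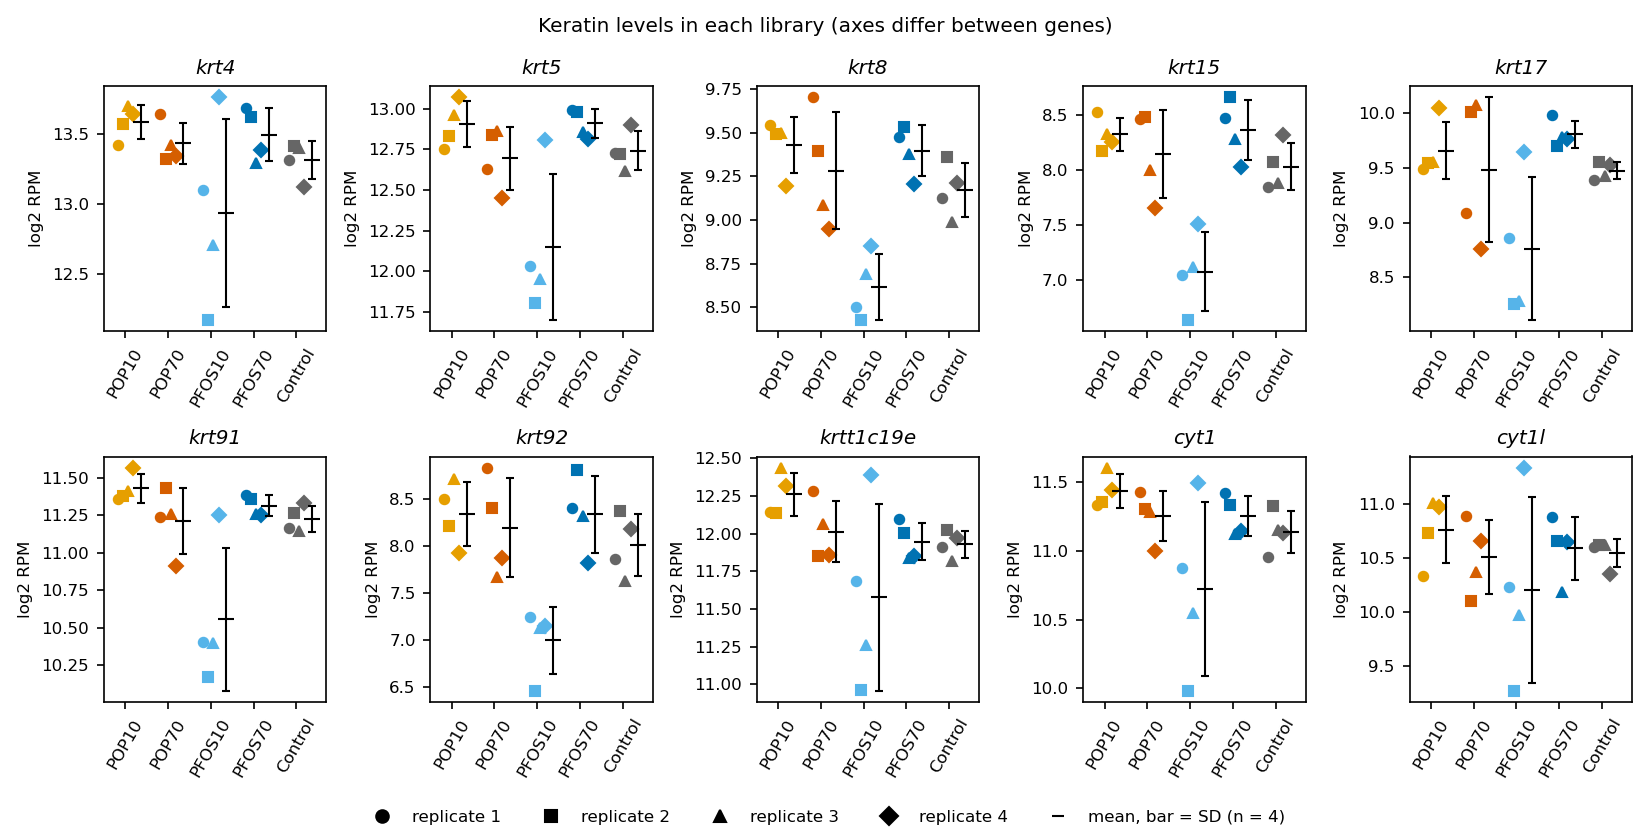
Level of each keratin in log2 RPM in every library, by group (1 panel per gene, vertical axes differ), with symbols for the replicate number and a bar for the mean ± SD (n = 4). PFOS10 has the lowest mean in all 10 panels, and PFOS10 replicate 4 lies above every Control library in 5 panels.

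The other 5 keratins did not pass the test in PFOS10 larvae, and their values split between replicate 4 and the rest. krt4, a type II keratin whose promoter is used to drive transgenes in zebrafish skin, had 13.10, 12.17, 12.70 and 13.77 log2 RPM in PFOS10 and 13.31, 13.42, 13.40 and 13.12 log2 RPM in Control. krtt1c19e, whose promoter marks basal keratinocytes in zebrafish, had 11.69, 10.96, 11.26 and 12.39 log2 RPM in PFOS10 and 11.91, 12.02, 11.82 and 11.97 log2 RPM in Control. In both genes, PFOS10 replicates 1 to 3 lay under all Control libraries and replicate 4 over them. krt17, in mammals a keratin of skin appendages and of wounded epidermis, had 8.86, 8.26, 8.29 and 9.65 log2 RPM in PFOS10 and 9.39, 9.55, 9.42 and 9.52 log2 RPM in Control. The enveloping layer keratin cyt1 had 10.87, 9.98, 10.55 and 11.50 log2 RPM in PFOS10 and 10.95, 11.33, 11.15 and 11.13 log2 RPM in Control, and its relative cyt1l 10.23, 9.27, 9.97 and 11.34 log2 RPM in PFOS10 and 10.60, 10.63, 10.62 and 10.35 log2 RPM in Control. The same arrangement of libraries held for these genes. Log2 differences were -0.71 ± 0.27 for krt17, -0.42 ± 0.20 for cyt1, -0.35 ± 0.19 for krtt1c19e, -0.38 ± 0.21 for krt4 and -0.34 ± 0.28 for cyt1l (SE), with limma adjusted p-values of 0.0986 to 0.470.

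PFOS10 replicate 4 was thus the highest PFOS10 library in every keratin but krt92. In krt92 it lay within the range of replicates 1 to 3. Replicates 1 to 3 were below every Control library in 10 of 10 keratins. Replicate 4 was below every Control library in 3 of them (krt8, krt15 and krt92), within the Control range in 2 (krt5 and krt91) and above every Control library in 5 (krt4, krt17, krtt1c19e, cyt1 and cyt1l). The mean over the 10 keratins relative to the Control mean was -0.56, -1.14, -0.75 and 0.06 on the log2 scale in PFOS10 replicates 1, 2, 3 and 4, and -0.09 to 0.12 in the Control libraries. Summed over the 10 genes, the keratins made up 22379 ± 9639 RPM in PFOS10 (SD, n = 4, range 13793 to 35981) and 28975 ± 1013 RPM in Control (range 28336 to 30482).

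The number of keratins called in PFOS10 larvae depended on single libraries. Without PFOS10 replicate 4 all 10 fell, with log2 differences of -1.09 for krt15 to -0.63 for krtt1c19e and limma adjusted p-values of 6.97e-05 to 0.0318, where 8.57% of all genes tested were called lower. The number was 3 without PFOS10 replicate 1 and 3 without PFOS10 replicate 2, when 675 and 1017 of 19289 genes were called lower. It was 2 without Control replicate 2, when 557 genes were called lower. It was 1 without Control replicate 4, when 343 genes (1.78% of all genes) were called lower. With all libraries in the fit, 1344 genes were called lower. Calls over all genes were thus also fewer without PFOS10 replicate 1 or 2 or Control replicate 2 or 4. They were more without PFOS10 replicate 4 (1653). krt15 was called in each of these fits. krt5 was the least stable call: it missed the threshold without any 1 of PFOS10 replicates 1, 2 or 3 or of Control replicates 1, 2 or 4 (adjusted p = 0.0558 to 0.0950), when the libraries were shifted to equal medians (0.0563), without the filter on low values (0.0534) and in a fit of PFOS10 and Control alone (0.0852). krt8 missed it without Control replicate 2 (0.0606), Control replicate 4 (0.0622) or PFOS10 replicate 1 (0.0537), krt92 without Control replicate 2 (0.0609), Control replicate 4 (0.0691) or PFOS10 replicate 2 (0.0515), and krt91 without Control replicate 4 (0.0576) or in the fit of PFOS10 and Control alone (0.0579). A shift to equal medians also moved the split of calls over all genes, to 1132 higher and 1087 lower in PFOS10 larvae, against 247 higher and 1344 lower on the values as deposited, and quantile normalization gave 253 higher and 533 lower. All 10 keratin differences stayed negative on each of these scales.

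**Figure D2:**
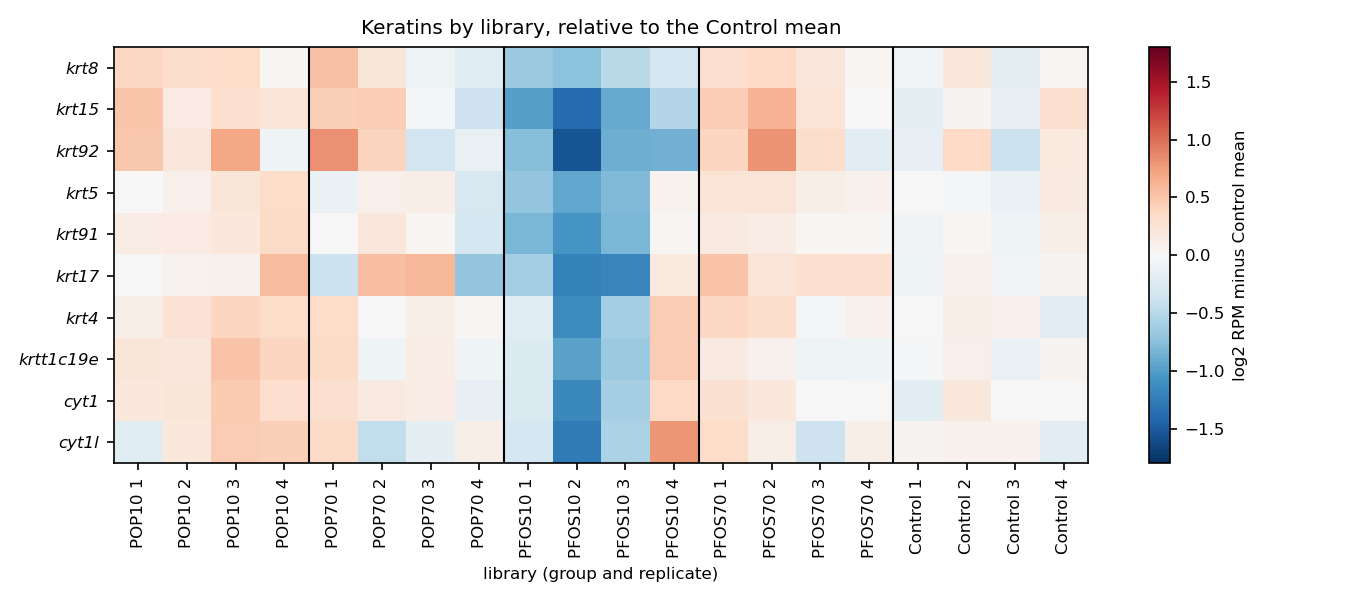
Log2 RPM of each keratin (rows) in each of the 20 libraries (columns, by group and replicate) minus the gene's Control mean, blue below and red above it. Columns PFOS10 1 to 3 are blue in all 10 rows, and column PFOS10 4 is red in krt4, krt17, krtt1c19e, cyt1 and cyt1l and blue in krt8, krt15 and krt92.

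The direction was the same in every transcript row. Among the 8 keratins with several rows, every row was lower in PFOS10 than in Control by its mean, from -1.03 to -0.59 over the rows of krt5, -0.97 to -0.71 for krt17, -0.87 to -0.67 for krt91, -0.63 to -0.35 for krtt1c19e and -1.02 to -0.97 for krt92 (log2 differences). Rows that lack at most 100 bases at the 5′ end of the chosen row, or start upstream of it as the krt17 row does, and stop at least 300 bases short of its 3′ end were compared with the chosen row in each library, a comparison chosen after values were seen. In all 7 such rows, from 6 keratins, the row without the 3′ end was lower relative to the chosen row in PFOS10 than in Control.

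For krt5 the short row was at -2.63, -2.95, -3.07 and -2.56 log2 relative to the chosen row in PFOS10 and at -2.50, -2.38, -2.40 and -2.22 in Control. The groups did not overlap (difference -0.43, exact two-sided permutation p = 0.0286, the smallest that 4 libraries against 4 can give). The same held for krtt1c19e (difference -0.28, exact permutation p = 0.0286). In the rows of krt17, krt91, cyt1 and cyt1l the groups overlapped, with differences of -0.25 to -0.11 and exact permutation p-values of 0.0571 to 0.343, and over the 7 rows the lowest Benjamini-Hochberg adjusted p was 0.1. Averaged over the 7 rows, PFOS10 replicates 1 to 4 stood at -1.51, -1.77, -1.87 and -1.48, the POP10 libraries at -1.45 to -1.39, the POP70 libraries at -1.63 to -1.36, the PFOS70 libraries at -1.33 to -1.26, and the Control libraries at -1.49 to -1.38. In this measure PFOS10 replicates 2 and 3 were farthest from Control, replicate 1 was just below the lowest Control library and replicate 4 was within the Control range. POP70 replicate 4, at -1.63, was also below every Control library and below PFOS10 replicates 1 and 4. The background was 1739 such rows of 1253 other genes, with a mean of at least 5 log2 RPM in both the short and the chosen row. Among them the median difference was -0.05 and the 5th percentile -0.22. In PFOS10, 88.5% were lower, and 17.1% had every PFOS10 library below every Control library. The rows are separately annotated transcripts, so this measure is not read coverage along a transcript. The part of this difference between rows in the keratin levels was not tested.

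**Figure D3:**
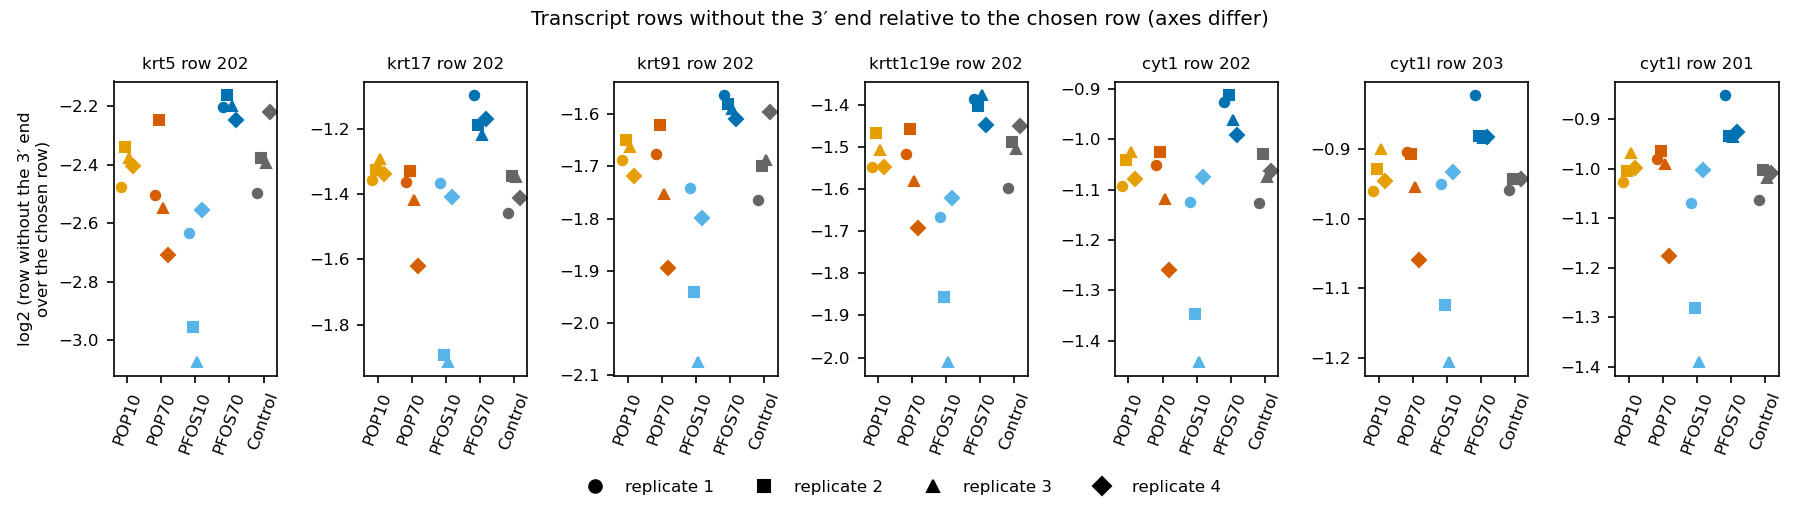
Log2 level of 7 transcript rows that lack the 3′ end of their gene relative to the gene's chosen row, in every library by group (1 panel per row, vertical axes differ, symbols for the replicate number). PFOS10 replicates 2 and 3 have the lowest values in all 7 panels.

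The mixture and the high dose of PFOS gave no keratin past the threshold against Control. In POP10 larvae all 10 differences were positive, from 0.16 for krt5 to 0.33 for krtt1c19e with a median of 0.27 (limma adjusted p = 0.528 to 0.838). The POP10 libraries had 13.42, 13.57, 13.70 and 13.64 log2 RPM of krt4, all above the Control libraries, and the same was true of krt91, krtt1c19e and cyt1, so that 4 of the 10 keratins did not overlap with Control, where 3.84% of all genes tested lay above it. krtt1c19e had 12.15, 12.14, 12.44 and 12.32 log2 RPM in POP10, against 11.82 to 12.02 log2 RPM in Control. In this comparison 0 of 19289 genes (0%) passed the limma test, and 1857 had an unadjusted p under 0.05, none of them a keratin.

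In POP70 larvae 7 differences were positive and 3 negative, from -0.05 for krt5 to 0.19 for krt92 (limma adjusted p = 0.772 to 0.993), and 0.0156% of all genes passed. The POP70 libraries were wide apart in krt17, at 9.09, 10.01, 10.07 and 8.76 log2 RPM, against 9.39 to 9.55 log2 RPM in Control, so both the lowest and the highest values were from POP70. In PFOS70 larvae all 10 differences were positive, from 0.02 for krtt1c19e to 0.33 for krt17 (limma adjusted p = 0.492 to 0.986). krt17 had 9.98, 9.70, 9.78 and 9.76 log2 RPM in PFOS70, all above the Control libraries, and was the 1 keratin of 10 without overlap, where 5.13% of all genes lay above Control. Under limma 0 genes (0%) passed in PFOS70 and 2257 had an unadjusted p under 0.05. No keratin had an unadjusted p under 0.05 in POP10, POP70 or PFOS70. The 95% intervals of the keratin differences, which set what these libraries could show, reached from -0.37 to 0.84 in POP10, from -0.63 to 0.70 in POP70 and from -0.54 to 0.89 in PFOS70 on the log2 scale. With the PFOS10 libraries left out of the fit, 0 keratins passed in each of these comparisons as well. Some of the smaller differences in POP70 and PFOS70 changed sign under other scalings, among them krt17 in POP70 and krtt1c19e and cyt1l in PFOS70.

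**Figure D4:**
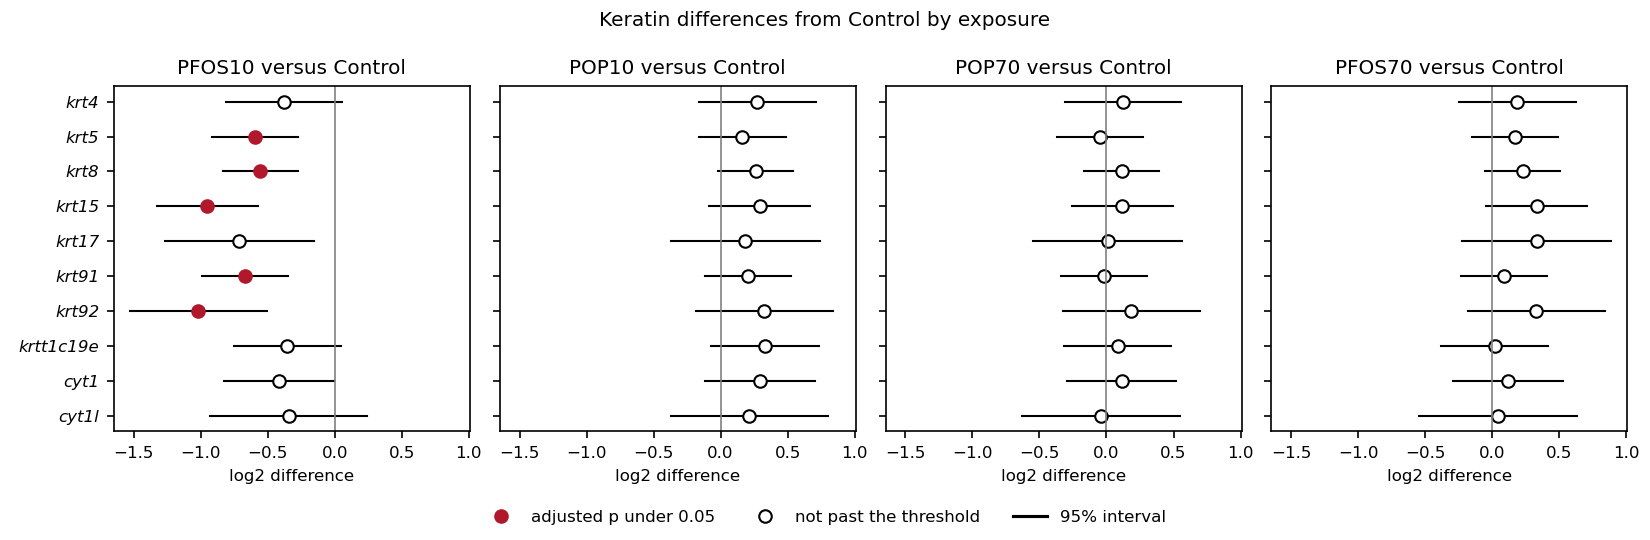
Log2 difference of each keratin from Control in 4 exposures (1 panel each), with 95% intervals and filled points for a limma adjusted p under 0.05. Of the 40 points, 5 are filled, all in the PFOS10 panel and all below 0.

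Ordered by group mean, PFOS10 was lowest in all 10 keratins. POP10 was highest in 6 (krt4, krt8, krt91, krtt1c19e, cyt1 and cyt1l) and PFOS70 in 4 (krt5, krt15, krt17 and krt92). Means of krt15 were 8.32 ± 0.15 log2 RPM in POP10, 8.15 ± 0.40 in POP70, 7.08 ± 0.36 in PFOS10, 8.36 ± 0.27 in PFOS70 and 8.03 ± 0.21 in Control (SD, n = 4 each). Among POP10, POP70, PFOS70 and Control no keratin differed past the threshold in any pair that was compared. The summed level of the 10 keratins was 34427 ± 2834 RPM in POP10, 30304 ± 2792 in POP70 and 32129 ± 3115 in PFOS70 (SD, n = 4 each).

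At the low dose, the mixture and PFOS alone were compared directly, since each mixture contains PFOS at the level given alone. In POP10 larvae 9 of 10 keratins were higher than in PFOS10 larvae (all but cyt1l, limma adjusted p = 0.137), where 19.8% of all genes tested were called higher. The log2 differences ran from 0.56 to 1.34 with a median of 0.79. Values were 1.34 ± 0.25 for krt92 (SE, limma adjusted p = 0.000863), 1.24 ± 0.18 for krt15 (0.000199), 0.87 ± 0.15 for krt91 (0.000692) and 0.82 ± 0.13 for krt8 (0.000415). In these 4 keratins every POP10 library lay above every PFOS10 library, which 16.8% of all genes did. krt15, for instance, had 8.53, 8.18, 8.33 and 8.26 log2 RPM in POP10, against 7.51 log2 RPM in the highest PFOS10 library. Equal medians would lower every difference between these groups by 0.10, and krt4 then missed the threshold (adjusted p = 0.0565). Single libraries decided 3 of the calls: krt4 missed the threshold without PFOS10 replicate 2 (0.102), PFOS10 replicate 3 (0.0711) or POP10 replicate 3 (0.0534), krt17 without PFOS10 replicate 2 (0.0620) or 3 (0.0616), and krtt1c19e without PFOS10 replicate 2 (0.0517). In a fit of POP10 and PFOS10 alone krt4 (0.0834) and krtt1c19e (0.0516) missed it, as did krt4 without the filter on low values (0.0512).

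The dose effect of PFOS alone had the same form. In PFOS70 larvae 8 of 10 keratins were higher than in PFOS10 larvae, all but krtt1c19e (limma adjusted p = 0.144) and cyt1l (0.305), where 23.6% of all genes were called higher. krt92 differed by 1.34 ± 0.25 (SE, limma adjusted p = 0.000423), krt15 by 1.28 ± 0.18 (7.32e-05) and krt17 by 1.04 ± 0.27 (0.0051). The groups did not overlap in 6 keratins (krt5, krt8, krt15, krt17, krt91 and krt92), which 20.6% of all genes also showed. krt17 had 9.70 to 9.98 log2 RPM in PFOS70, and its highest PFOS10 library was at 9.65 log2 RPM. Equal medians would lower each of these differences by 0.14, and krt4 (adjusted p = 0.127) and cyt1 (0.123) then missed the threshold. Both also missed it without PFOS10 replicate 2 or 3 or PFOS70 replicate 1 or 2 (krt4 0.100 to 0.193, cyt1 0.0907 to 0.190), and krt4 without PFOS70 replicate 4 (0.0512). The same pair missed it without the filter (krt4 0.0837, cyt1 0.0649), without the variance trend (0.0584, 0.0613) and in a fit of PFOS70 and PFOS10 alone (0.123, 0.111), as did krt4 with quantile normalization (0.0514) and cyt1 with the replicate block (0.0507). Both comparisons rest on the same 4 PFOS10 libraries as the comparison with Control, so the 3 results are not independent of each other. Without PFOS10 replicate 4, all 10 keratins were higher in both. In that fit 3798 of 19289 genes were called higher in POP10 than in PFOS10, and 4496 in PFOS70 than in PFOS10.

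Between the doses of the mixture, by contrast, no keratin passed: POP70 less POP10 was negative for all 10, from -0.26 to -0.14, with limma adjusted p-values of 1, and 0 genes (0%) were called, with 580 at an unadjusted p under 0.05. POP70 less PFOS70, the mixture against PFOS alone at the high dose, ran from -0.32 to 0.07 over the keratins, and 0 of 10 passed, where 0.181% of all genes did. Tested against each other as the mixture's less that of PFOS, the dose effects differed past the threshold in 6 keratins, all negative, where 13.2% of all genes were called in that direction. For krt15 the dose effect was -0.17 ± 0.18 in the mixture and 1.28 ± 0.18 with PFOS, and the difference between them -1.46 ± 0.26 (SE, limma adjusted p = 0.00248). For krt92 it was -0.14 ± 0.25 in the mixture and 1.34 ± 0.25 with PFOS, a difference of -1.49 ± 0.35 (adjusted p = 0.00843). krt5, krt8, krt17 and krt91 had differences of -1.22 to -0.93 (adjusted p = 0.00454 to 0.0336), and krt4, krtt1c19e, cyt1 and cyt1l had adjusted p-values of 0.0835 to 0.284. Without PFOS10 replicate 4 all 10 were called, where 2677 of 19289 genes were called negative. krt17 missed the threshold without PFOS10 replicate 2 or 3, PFOS70 replicate 1 or 2, POP10 replicate 4 or POP70 replicate 4 (limma adjusted p = 0.0526 to 0.0809). krt17 also missed it without the filter on low values (0.0553), with equal medians (0.0554), without the variance trend (0.0562) and in a fit of only the groups compared (0.0541).

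The keratins varied together over the 20 libraries, and less closely when the PFOS10 libraries were left out. Over the 20 libraries, which share group and depth differences, Pearson's r between pairs of keratins was 0.46 to 0.98 with a median of 0.79 over 45 pairs. Over the 16 libraries without PFOS10 it was -0.19 to 0.91 with a median of 0.48. The closest pair over the 20 libraries was krt5 and krt91, on different chromosomes (0.98, and 0.87 without PFOS10). krt8, krt15 and krt92 formed another close set, at 0.95 for krt8 with krt92 and 0.95 for krt8 with krt15 (0.91 and 0.84 without PFOS10). cyt1 was close to krt4 (0.96, and 0.80 without PFOS10) and to krtt1c19e (0.96, and 0.83 without PFOS10). The loosest pair over the 20 libraries was krt92 and cyt1l (0.46), which lie next to each other in the chromosome 19 cluster. Without PFOS10 the lowest r was that of krt17 with cyt1l (-0.19). Of the 5 keratins above Control in PFOS10 replicate 4, krtt1c19e, cyt1l, cyt1 and krt17 are in that cluster and krt4 is not, while krt92, between krtt1c19e and cyt1l, was below Control in the same library.

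Among 7151 other genes with a mean of at least 5 log2 RPM, those whose levels most resembled the mean of the centred keratin values were cfl1l, a cofilin-like gene (r 0.97 over 20 libraries, 0.89 over the 16 without PFOS10), epcam, an epithelial cell adhesion molecule (0.97, 0.91), oclna, an occludin of tight junctions (0.96, 0.89), spint1a, an inhibitor of epithelial serine proteases (0.96, 0.84), and arhgap17b (0.95, 0.85). These correlations are descriptions. cfl1l also stands in the periderm list below, and epcam and spint1a in the junction list. In PFOS10 larvae the log2 differences from Control were -0.57 ± 0.17 for oclna, -0.59 ± 0.16 for spint1a and -0.63 ± 0.17 for arhgap17b (SE). Those of epcam and cfl1l were -0.69 ± 0.24 and -0.43 ± 0.15 (SE). The ranking used the PFOS10 libraries, so the sign of these differences was largely set by the choice of genes. No test is given for them. The least similar were the stathmin gene stmn2a (-0.92), fez1 (-0.91) and the proton pump subunit atp6v0cb (-0.91).

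Other genes of the skin were read from lists that had been drawn up with earlier results of these data known, in PFOS10 against Control. Of the 10 other keratin genes in the table, 5 fell, where 6.97% of all genes fell, 0 rose and the median log2 difference was -0.67. krt18, the type I partner of krt8 in mammalian simple epithelia, was at 6.88 ± 0.09 log2 RPM in PFOS10 and 7.45 ± 0.12 in Control (SD, n = 4 each), a difference of -0.57 ± 0.13 (SE, limma adjusted p = 0.0125), beside -0.55 ± 0.13 for krt8. krt97 differed by -0.90 ± 0.21 (0.0146) and krt94 by -0.76 ± 0.19 (0.0223). The mean of these other keratins was below all Control libraries in PFOS10 replicate 4 as well as in replicates 1 to 3, at -0.81, -0.96, -0.55 and -0.42 in replicates 1 to 4 and -0.23 to 0.21 in Control. A difference between the 2 sets of keratins was not tested.

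Of 15 tested periderm genes, 6 fell and 0 rose, where 6.97% of all genes fell, with a median of -0.58. They included anxa1a, an annexin (-0.77 ± 0.16, limma adjusted p = 0.00835), ppl, the cornified envelope protein periplakin (-0.74 ± 0.20, 0.0309), and capn9, a calpain protease (-0.65 ± 0.18, 0.0312). Of 18 basal keratinocyte and basement membrane genes, 4 fell and 0 rose, with a median of -0.41. Among these were frem3, an extracellular matrix protein gene (-0.57 ± 0.14, 0.0175), the laminin gene lamb4 (-0.75 ± 0.20, 0.0287) and tp63, the transcription factor of basal keratinocytes (-0.67 ± 0.18, 0.0312). Of 18 epithelial junction genes, 9 fell and 0 rose, with a median of -0.50, among them the desmosomal plakophilins pkp3b (-0.45 ± 0.09, 0.00691) and pkp3a (-0.61 ± 0.15, 0.0176) and the tight junction gene tjp3 (-0.78 ± 0.18, 0.0132). Of 18 epidermal transcription factors, 7 fell and 0 rose, with a median of -0.42, including klf3 (-1.23 ± 0.21, 0.00305), the grainyhead factor grhl2b and the ionocyte factor foxi3b. grhl2b was at 2.30 ± 0.34 log2 RPM in PFOS10 and 3.30 ± 0.16 in Control (SD, n = 4 each, limma adjusted p = 0.00477), and foxi3b at 2.51 ± 0.35 in PFOS10 and 3.51 ± 0.17 in Control (adjusted p = 0.00888). tp63 is in both the basal and the transcription factor list, and foxi3a and foxi3b are in both the transcription factor and the ionocyte list.

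Markers of cell types that lie beside keratinocytes, or outside the skin, were read in the same comparison, again against 6.97% of all genes called lower. Of 16 ionocyte markers, 6 fell, with a median of -0.68, led by the ammonia transporter gene rhcga at 3.51 ± 0.38 log2 RPM in PFOS10 and 5.74 ± 0.55 in Control (SD, n = 4 each; limma adjusted p = 0.000694) and the ion cotransporter slc12a10.2 (-1.16 ± 0.19 SE, 0.00193). Of 8 mucous cell markers, 7 fell, with a median of -0.99, among them the mucins muc5.1 (-1.13 ± 0.17, 0.00106) and muc5.2 (-1.72 ± 0.34, 0.00731) and the forkhead gene foxp1a (-0.49 ± 0.10, 0.00913). Of 9 fin fold mesenchyme markers, 4 fell, with a median of -0.48, led by the actinodin genes and2 (-1.77 ± 0.27, 0.00113) and and1 (-1.24 ± 0.27, 0.0118). Of 12 intestinal markers, 4 fell, with a median of -1.18, including the peptidase gene anpepb (-1.35 ± 0.32, 0.0175). Of 12 notochord markers 1, ntd5, fell (-0.56 ± 0.16, 0.0367), a share near that of all genes, with a median of -0.43. None of the genes in these lists rose.

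Intermediate filament genes of other tissues served as a contrast within the wider protein family. Of 17 of them, which include vimentin, desmin, lamin, neurofilament and glial filament genes, 8 differences were positive and 9 negative, and the median was -0.04. The nuclear lamin gene lmna, 1 of the 17, fell (-0.57 ± 0.17 SE, limma adjusted p = 0.0426), a share near the 6.97% of all genes called lower. Their summed level was 1890 to 2021 RPM in the PFOS10 libraries and 1829 to 2095 RPM in the Control libraries.

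PFOS10 replicate 4 did not stand in the same place in every list, and a difference between lists was not tested. Relative to the Control mean, the periderm genes averaged -0.38, -1.07, -0.80 and 0.07 in PFOS10 replicates 1 to 4 on the log2 scale and -0.14 to 0.17 in the Control libraries. Basal keratinocyte genes averaged -0.27, -0.71, -0.63 and -0.14, and junction genes -0.38, -0.81, -0.57 and -0.11. Epidermal transcription factors averaged -0.50, -0.84, -0.69 and -0.10, and fin fold mesenchyme markers, from outside the epidermis, -0.70, -1.01, -0.88 and -0.35. In each of these lists replicate 4 was the PFOS10 library nearest to Control. It was within the Control range in the periderm list. In the others it was still below every Control library. The lowest Control values there were -0.08 (basal), -0.10 (junction), -0.09 (transcription factors) and -0.19 (fin fold). Ionocyte markers, in turn, averaged -0.71, -0.91, -0.91 and -0.72, mucous cell markers -1.18, -0.83, -0.81 and -1.06, and intestinal markers -1.42, -0.91, -0.91 and -1.72. All 4 PFOS10 libraries were below the lowest Control library in these lists too. Control values ranged from -0.33 to 0.34 for ionocytes, -0.12 to 0.13 for mucous cells and -0.72 to 0.50 for intestine. Notochord markers averaged -0.59, -0.47, -0.44 and -0.48 in PFOS10 replicates 1 to 4, also below the lowest Control library (-0.16). Summed levels of the periderm genes were 1431 to 3081 RPM in PFOS10 and 2650 to 3156 RPM in Control, those of the ionocyte markers 692 to 919 RPM in PFOS10 and 819 to 924 RPM in Control, and those of the mucous cell markers 1086 to 1299 RPM in PFOS10 and 1277 to 1381 RPM in Control. Fin fold markers summed to 3136 to 4990 RPM in PFOS10 and 4846 to 5766 RPM in Control, intestinal markers to 297 to 525 RPM in PFOS10 and 522 to 1219 RPM in Control, and notochord markers to 1607 to 2397 RPM in PFOS10 and 1923 to 3432 RPM in Control. Of the tested markers of these cell types, 0 were at 0 reads in any PFOS10 or Control library. The part of these cell types in the keratin differences was not tested.

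**Figure D5:**
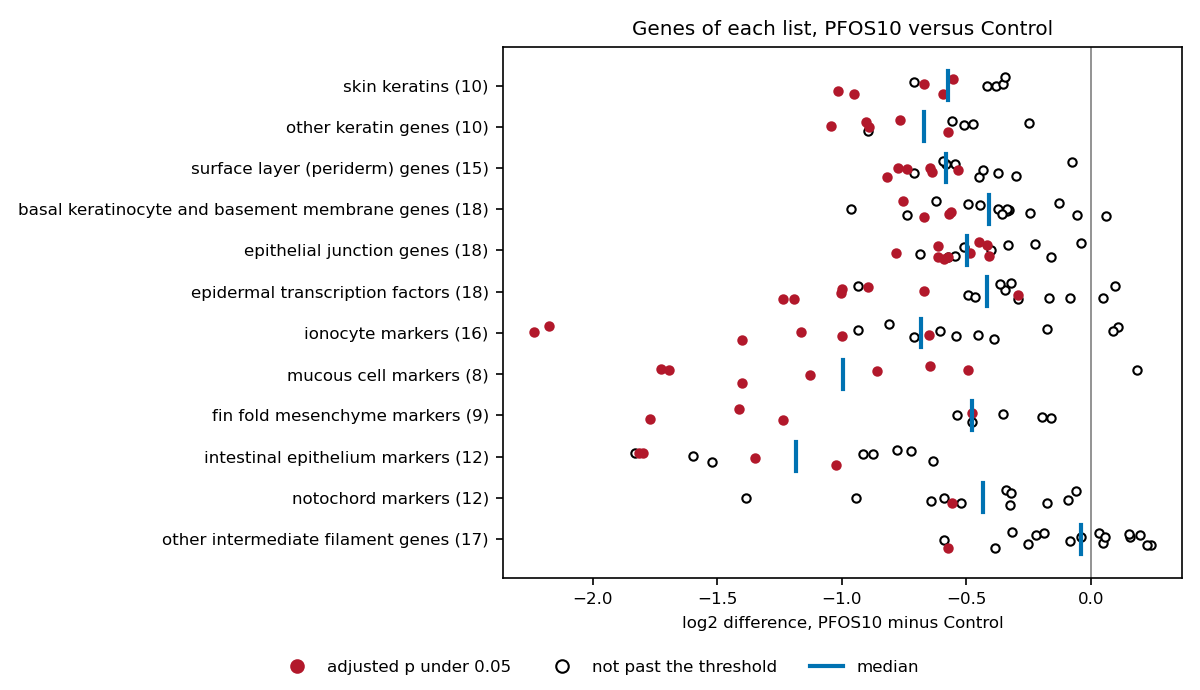
Log2 difference between PFOS10 and Control for each tested gene of the 10 skin keratins and of 11 other lists (number tested in brackets), with filled points for a limma adjusted p under 0.05 and a line at the median. The medians of the epithelial lists lie between -1.18 and -0.41, and those of the fin fold mesenchyme and notochord markers lie in the same range. The median of the other intermediate filament genes is -0.04.

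In the other exposures no gene of these lists passed against Control. Median differences of the periderm genes were 0.37 in POP10, 0.22 in POP70 and 0.44 in PFOS70, with 15, 14 and 15 of 15 genes positive, and those of the other keratins were 0.22, 0.19 and 0.33. Intermediate filament genes of other tissues had medians of -0.06, -0.02 and 0.04. In POP10 against PFOS10 larvae, 14 of 15 periderm genes and 17 of 18 junction genes were higher, where 19.8% of all genes were. In PFOS70 against PFOS10 larvae 14 of 15 periderm genes and 16 of 18 junction genes were higher, where 23.6% of all genes were, with 0 lower in either list.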

How the data were processed

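Values were the deposited log2 RPM of 48838 transcript rows in 20 libraries. By the values, the authors' log2 scale is reads per 1000000 with 0 reads written as 0.9 reads, and 100% of values between 1 and 1000 reads came out whole within 0.05. Reads came from poly-T purified RNA sequenced as read pairs, per the labels' protocols. Tools listed in the submitters' processing notes are STAR 2.5.4b, Trim Galore 0.4.5, R 3.5.0 and DESeq2, with build GRCz11. The step to log2 values, the strand setting and the handling of reads with several matches: not given in the sources used here.

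A linear model in limma 3.58.1 (R 4.3.3) fitted 5 groups to 20 libraries (15 residual degrees of freedom, mean-variance trend), for genes that reached 0 log2 RPM in 4 or more libraries. P-values were two-sided and adjusted by Benjamini-Hochberg over 19289 genes within each of 9 comparisons, with a threshold of 0.05. The fit was tested on simulated data with independent genes, the same dispersion for all genes and no deviating library. That test does not cover the spread among the PFOS10 libraries. The 10 members, all named, and the lists were chosen with earlier results of these data known. From each list up to 3 called genes of smallest adjusted p were named. Alternatives were other filters, scalings, weights, transcript rows, a replicate block, a count model (limma voom on recovered reads) and each library left out. 9 of 10 symbols matched the gene table supplied as a reference, which is of another build, and no coordinates were taken from it. No sequences were printed.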

Additional observations from a re-analysis of the deposited data

Results flagged for a closer look

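In 4 of 50 gene and group combinations, 1 library lay far from the other 3 of its group by Dixon's ratio at the 95% level, where chance alone gives about 1 in 20. krt8 was lowest in POP10 replicate 4, at 9.19 log2 RPM, and krt17 was highest in the same library, at 10.04 log2 RPM. krt92 was lowest in PFOS10 replicate 2, at 6.46 log2 RPM. PFOS10 replicate 4 was flagged by this rule in no keratin. cyt1l was lowest in Control replicate 4, at 10.35 log2 RPM.

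The dose effect of the mixture and that of PFOS alone differed by the limma test in 6 keratins, each on the log2 scale: -0.97 for krt5, -0.93 for krt8, -1.46 for krt15, -1.22 for krt17, -0.98 for krt91 and -1.49 for krt92. All 6 rest on the PFOS10 libraries, which stand apart from the rest on the first principal component.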

How the results depend on the processing

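Counts of keratins called (of 10) were 0 in every setting in the 5 comparisons of POP10, POP70, PFOS70 and Control. In PFOS10 against Control, array weights gave 9 and a fit of only the groups compared 3, against 5, and leaving out 1 library gave 1 to 10. The array weights gave PFOS10 replicate 4 the lowest weight of the 20 libraries, 0.39, against 2.09 for PFOS10 replicate 3. Counts with array weights are thus not separate from those without PFOS10 replicate 4. In POP10 against PFOS10 leaving out 1 library gave 6 to 10, against 9, and in PFOS70 against PFOS10 6 to 10, against 8. The difference between dose effects gave 10 with array weights, where 3614 of 19289 genes were called negative. It gave 5 to 10 with 1 library left out, against 6. Without PFOS10 replicate 2, 3198 of 19289 genes were called higher in POP10 than in PFOS10, against 3812 with all libraries. In PFOS70 against PFOS10 the same fit called 4032 genes higher, against 4557, and for the dose effects 2181 negative, against 2551. Some other libraries lowered these counts further when left out. Without POP10 replicate 1, 2888 genes were called higher in POP10 than in PFOS10. Without PFOS70 replicate 2, 3623 were called higher in PFOS70 than in PFOS10, and 1646 were negative for the dose effects. The cause was not tested. Over all genes, 6.97% were called lower in PFOS10 (1344 of 19289). The share was 13.3% with array weights (2560), 4.47% in the fit of only the groups compared (863), 4.69% by voom (905) and 2.76% with quantile normalization (533). With the stricter filter of 5.5 log2 RPM it was 4.87% (292 of 5992), and with 1 library left out 1.78% to 8.57%. The labels do not say whether replicate numbers pair libraries. Correlations of deviations of same-numbered libraries ran from -0.22 to 0.25, which does not settle it. With the replicate block the counts were 5 in PFOS10 against Control, 9 in POP10 against PFOS10, 7 in PFOS70 against PFOS10 and 6 for the dose effects. In the same directions and order, 1645, 3983, 4691 and 2800 of 19289 genes were called.

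None of the 28 called differences changed sign, and 16 of all 90 did in some setting. In POP70 against Control, krt17 was -0.00050 with quantile normalization and -0.0025 with rows summed, and krt91 was 0.0084 with array weights. In PFOS70 against Control, krtt1c19e was -0.023 with quantile normalization, -0.037 with equal medians and -0.0047 with array weights, and cyt1l was -0.010 with equal medians. In POP70 against PFOS70, cyt1 was 0.049 with equal medians and 0.0084 with array weights, and in POP70 against POP10 krt17 was 0.071 with array weights. With 1 library left out, ranges in POP70 against Control were -0.10 to 0.035 for krt5, -0.028 to 0.22 for krt8, -0.19 to 0.25 for krt17, -0.091 to 0.084 for krt91, -0.028 to 0.36 for krt92, -0.0062 to 0.14 for krtt1c19e and -0.17 to 0.093 for cyt1l. In PFOS70 against Control they were -0.033 to 0.053 for krtt1c19e and -0.053 to 0.18 for cyt1l. In POP70 against PFOS70 they were -0.13 to 0.00066 for krt4, -0.36 to 0.033 for krt92, -0.023 to 0.12 for krtt1c19e, -0.061 to 0.082 for cyt1 and -0.22 to 0.051 for cyt1l. In POP70 against POP10 they were -0.37 to 0.067 for krt17 and -0.35 to 0.035 for krt92. Each group had 4 pools of larvae, which limits the precision of every interval.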
